A study of Mus musculus with 6 samples.

Results

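The extracellular matrix is the scaffold that fibroblasts and other stromal cells secrete around an epithelium. Fibrillar collagens form its cables, collagen VI a fine microfibril network, and collagen IV, laminins and nidogens the basement membrane sheet under epithelium and around vessels. Proteoglycans and matricellular proteins bind to these structures and to cells, elastin and fibrillin give recoil, and lysyl oxidases cross-link the fibres. In intestinal tumors most interstitial matrix is made by fibroblasts, whereas basement membrane components are also made by endothelium, pericytes, smooth muscle and epithelium. The 42 genes described here cover these roles and include 3 fibroblast surface genes. They were taken from a list of symbols, each matching 1 gene among the 46078 in the count tables. The rule uses no measured value, but the list was drawn up with earlier results of these data known. They lie on 16 chromosomes.

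RNA was sequenced from small-intestinal adenomas of mice at 18 weeks of age on a mixed C57BL6/SV129 background. The knockout group (KO) was miR-34a/b/c-/-;ApcMin/+ and the wild-type group (WT) was miR-34a/b/c+/+;ApcMin/+, with 3 mice in each. ApcMin, carried by both groups, shortens Apc, a brake on Wnt signalling, and causes polyps along the intestine. No Cre or tissue restriction of the miR-34 deletion is named in the labels, and no mouse without ApcMin was analysed here. Each library, called KO1 to KO3 and WT1 to WT3 after its title, pooled 3 tumors of 1 mouse, so the mouse is the replicate and tumors within a mouse cannot be separated. The question addressed was how loss of the p53-induced miR-34 family alters ApcMin adenomas, and here how it bears on the matrix genes.

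Libraries held between 26375035 and 38354355 counts, of which mitochondrial genes took 2.31% to 4.18%. The gene entries Mir34a, Mir34b and Mir34c had 0 counts in all 6 libraries, so this gene-level sequencing cannot check the deletion. Reads of the X-inactivation RNA Xist and of 4 genes on the Y marked KO2 and WT3 as male and the other 4 mice as female, which the labels do not state. Genotypes were compared with edgeR's quasi-likelihood test over 17254 genes that passed a filter on low counts, with Benjamini-Hochberg adjustment at 0.05 over all of them. All 42 matrix genes passed that filter. Levels are CPM, counts scaled to a common library size with TMM factors, and a log2 fold change is KO over WT with its standard error (SE).

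None of the 42 matrix genes passed the adjusted threshold in edgeR, where 0.0927% of all tested genes did (16 of 17254). Adjusted p-values of the 42 ran from 0.793 to 0.977. At an unadjusted p of 0.05, 6 of the 42 passed, all with the higher level in KO, against 3.27% of tested genes that passed in that direction. DESeq2 also called 0 of the 42, while calling 0.638% of all genes, and 17 of the 42 had an unadjusted p under 0.05, against 7.0% of all genes. limma-voom called 0 of the 42, against 0.122% of all genes, and 7 of the 42 had an unadjusted p under 0.05, against 5.99%.

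The fitted differences nevertheless pointed largely one way. Of the 42 genes, 39 had a log2 fold change above 0, as did 51.1% of all tested genes. Only Col14a1, Fap and Thy1 had one below 0. The median over the 42 was 0.76, against 0.01 over all tested genes. In bulk RNA, more matrix-producing cells in a pool of tumors and more matrix RNA per cell cannot be told apart.

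These differences did not separate the mice by genotype. KO and WT levels did not overlap for 3 of the 42 genes (Lama2, Nid1 and Nid2), each with all KO libraries above all WT libraries. Of all tested genes, 5.86% had no overlap with KO higher. No matrix gene had all KO libraries below all WT libraries, a pattern seen in 5.34% of tested genes.

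Summed over the 42 genes, levels were 4169.8, 2267 and 6370.5 CPM in KO1, KO2 and KO3, against 2783, 1433 and 3391 CPM in WT1, WT2 and WT3. KO1 and KO3 were therefore above every WT library, while KO2 lay below WT1 and WT3 and above WT2. As a share of all counts the 42 genes took 0.449%, 0.207% and 0.692% in KO1 to KO3, and 0.286%, 0.136% and 0.324% in WT1 to WT3. Mitochondrial genes took 2.89%, 4.18% and 2.31% in KO1 to KO3, and 2.98%, 4.005% and 3.08% in WT1 to WT3. That share was thus lowest in KO3 and highest in KO2 and WT2, and its link to the matrix levels was not tested. KO3 was the highest library for 37 of the 42 genes and WT2 the lowest for 35. Among all tested genes KO3 was highest in 19.4% and WT2 lowest in 20.7%. A single order, KO3 above KO1, WT3, WT1, KO2 and WT2 in turn, held for 11 genes, and the next most frequent order, which exchanges only WT1 and KO2, for 8.

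**Figure D1:**
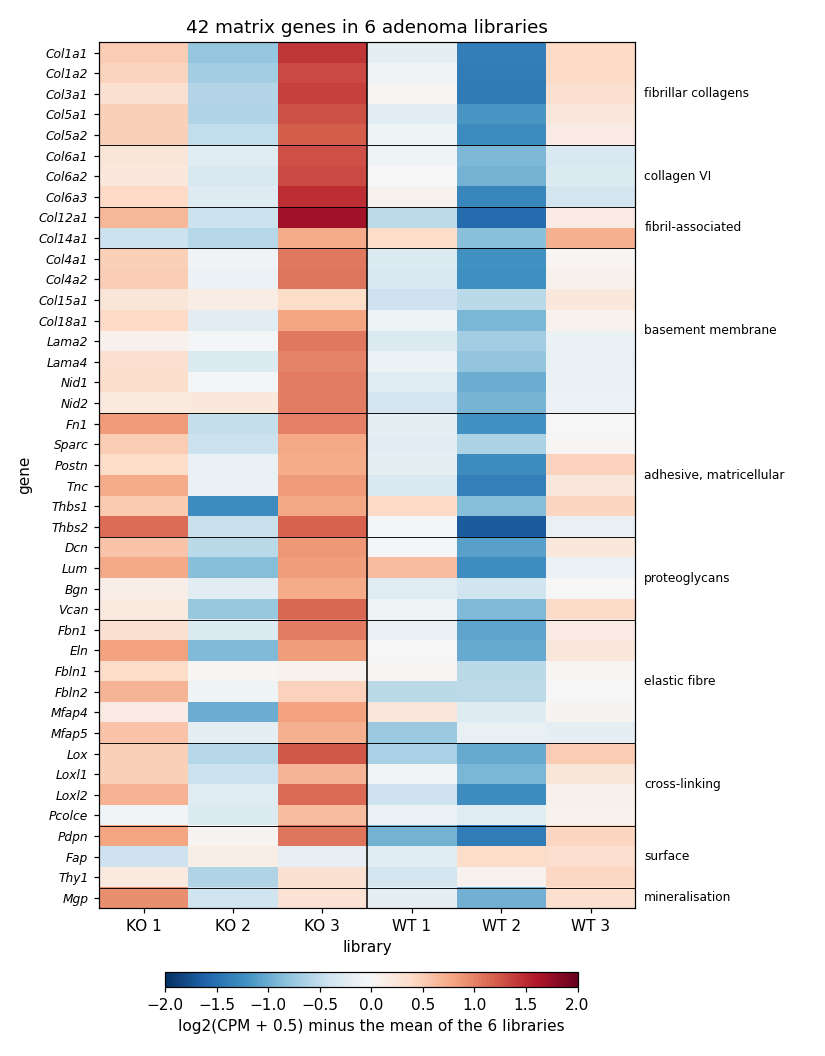
Level of each of the 42 matrix genes in each library as log2(CPM + 0.5) minus the gene's mean over the 6 libraries, with genes in rows by role and KO libraries left of WT libraries. The KO3 column is the highest for 37 genes and the WT2 column the lowest for 35, and KO2 is paler or bluer than KO1 and KO3 in most rows.

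The spread within a genotype was wide. The SD of log2 levels within genotypes had a median of 0.68 over the 42 genes, against 0.24 over all tested genes. It was 0.95 for the fibrillar collagens and 0.51 for the basement membrane genes. For comparison, the median genotype difference of the fibrillar collagens was 0.83 and that of the basement membrane genes 0.94 on the same scale.

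Mature miR-34 binds mRNAs through bases 2 to 8, its seed, and miR-29 is a well-known repressor of collagen mRNAs, so both seeds were looked up in the longest annotated 3′ untranslated region (UTR) of every protein-coding gene (GENCODE M21, GRCm38). The mature sequences are from RefSeq (GRCm38.p6), with the seed in capitals. miR-34a-5p lies at chr4:150068473-150068494 on the plus strand and miR-34b-5p at chr9:51103610-51103632 on the minus strand. They are shown because the first pair belongs to the deleted family, and the other 3 share a seed whose matches were frequent among the matrix genes.
mmu-miR-34a-5p: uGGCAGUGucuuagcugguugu
mmu-miR-34b-5p: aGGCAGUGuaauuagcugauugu
mmu-miR-29a-3p: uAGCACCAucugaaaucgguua
mmu-miR-29b-3p: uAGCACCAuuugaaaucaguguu
mmu-miR-29c-3p: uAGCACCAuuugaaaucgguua

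A miR-34 match (CACTGCC on the transcribed strand) was in the 3′ UTR of 7 of the 42 matrix genes (16.7%), against 2996 of 21010 protein-coding genes (14.3%). The 7 were Bgn, Col12a1, Col6a1, Col6a2, Loxl1, Loxl2 and Mfap4. Requiring an A after the match (CACTGCCA) left 4 of them (9.52%), namely Bgn, Col6a2, Loxl1 and Mfap4, against 4.91% of all genes. Bgn held 2 matches and the others 1 each. Fitted log2 fold changes were 0.47 for Bgn, 0.93 for Col6a2, 0.52 for Loxl1 and 0.15 for Mfap4. For Col12a1, Col6a1 and Loxl2 they were 1.37, 0.975 and 1.09. The median over all 42, which include these 7, was 0.76, and none of the 7 passed the test. The matches are shown in capitals, with the position of the first base of the match counted from the start of the UTR.
Bgn (chromosome X, position 295): aagatggatagagcaCACTGCCaccgcc
Col6a1 (chromosome 10, position 281): tctcgtcttcctcctCACTGCCcctaac
Col12a1 (chromosome 9, position 2112): gcagattgtgaatttCACTGCCttatat
Loxl2 (chromosome 14, position 311): cattcactccccagaCACTGCCgtgtgt

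A miR-29 match (TGGTGCT) was more frequent: 14 of the 42 UTRs (33.3%) held one, against 2754 of 21010 (13.1%). The longer match TGGTGCTA was in 12 of the 42 (28.6%) and in 2.86% of all genes. Median UTR length was 980 bases in the 42 genes and 960 bases overall. The carriers were Col1a1, Col3a1, Col5a1, Col5a2, Col4a1, Col4a2, Col15a1, Col6a2, Col6a3, Eln, Fbn1, Lox, Loxl2 and Mfap5, and Col5a1 held the most, with 4 matches. A match is a run of letters and not a measured binding site, and mature miR-34 and miR-29 were not measured in these libraries. Examples from a fibrillar, a basement membrane and 2 elastic fibre genes are shown with the match in capitals.
Col1a1 (chromosome 11, position 919): gtgggaaggaatttcTGGTGCTatagaa
Col4a1 (chromosome 8, position 33): gccaccgtcacaacaTGGTGCTactccc
Eln (chromosome 5, position 38): cgacctcatcaacgtTGGTGCTactgct
Fbn1 (chromosome 2, position 406): tttctgttgtctgttTGGTGCTagtaaa

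Fibrillar collagens make the tension-bearing cables of the stroma: collagen I from Col1a1 and Col1a2, collagen III from Col3a1, and collagen V, which nucleates the fibrils, from Col5a1 and Col5a2. All 5 had the higher mean in KO, with a median log2 fold change of 0.83 and none called. Col1a1 (mm10 chr11:94936224-94953042, plus strand) was at 467, 190.4 and 882 CPM in KO1, KO2 and KO3, against 287, 126 and 434 CPM in WT1, WT2 and WT3. The groups overlapped, since KO2 was below WT1 and WT3. Its log2 fold change was 0.86 ± 0.62 (SE; edgeR adjusted p = 0.813), smaller than 2 SE. Col5a1 (chr2:27886425-28039514, plus strand) was at 70.0, 33.1 and 123 CPM in KO1 to KO3 and at 43.4, 22.1 and 58.7 CPM in WT1 to WT3. Its order over the 6 mice was that of Col1a1. The Col5a1 log2 fold change was 0.86 ± 0.52 (edgeR adjusted p = 0.805). The remaining 3, Col1a2, Col3a1 and Col5a2, had log2 fold changes from 0.76 to 0.83. In none of the 5 did KO2 exceed WT1.

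Collagen VI chains assemble into beaded microfibrils that link cells to the interstitial matrix. Col6a1 (chr10:76708792-76726168, minus strand) was at 81.9, 58.0 and 169 CPM in KO1 to KO3, against 65.1, 36.6 and 55.7 CPM in WT1 to WT3. Only KO2 lay within the WT range, and the log2 fold change was 0.97 ± 0.41 (edgeR adjusted p = 0.793, unadjusted p = 0.0509). Col6a3 (chr1:90765923-90843971, minus strand) was at 60.3, 38.0 and 128 CPM in KO1 to KO3 and at 47.9, 18.3 and 35.4 CPM in WT1 to WT3. Again KO2 alone overlapped, lying below WT1. The Col6a3 difference was 1.16 ± 0.51 on the log2 scale (edgeR adjusted p = 0.793). Col6a2, which lies beside Col6a1 on chromosome 10, had a log2 fold change of 0.93.

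The fibril-associated collagens Col12a1 and Col14a1 decorate fibril surfaces. Col12a1 (chr9:79598991-79718831, minus strand) was at 70.9, 33.0 and 144 CPM in KO1 to KO3, against 30.8, 15.1 and 49.9 CPM in WT1 to WT3. It had the largest log2 fold change of the 42 genes, 1.37 ± 0.60 (edgeR adjusted p = 0.793), with KO2 between WT1 and WT3. Col14a1 (chr15:55307750-55520803, plus strand) was at 20.1, 18.2 and 45.6 CPM in KO1 to KO3 and at 35.4, 15.1 and 45.1 CPM in WT1 to WT3. Its highest KO and highest WT values were nearly the same, and its log2 fold change was -0.18 ± 0.49 (edgeR adjusted p = 0.941).

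Collagen IV (Col4a1, Col4a2) forms the sheet's network, nidogens (Nid1, Nid2) tie it to laminin, Lama2 and Lama4 encode laminin alpha chains, and Col15a1 and Col18a1 encode collagens at the sheet's stromal side. All 8 had the higher fitted level in KO, with a median log2 fold change of 0.94, and KO2 was above WT1 in 6 of the 8. Of the 6 matrix genes with an unadjusted p under 0.05, 3 were of this class (Col4a1, Nid1 and Nid2), and the others were Fbln2, Mfap5 and Loxl2. Col4a1 (chr8:11198423-11312826, minus strand) was at 387, 265 and 579 CPM in KO1 to KO3, against 229.7, 119.8 and 285 CPM in WT1 to WT3. Only the KO2 and WT3 values crossed, and the log2 fold change was 0.96 ± 0.39 (edgeR adjusted p = 0.793, unadjusted p = 0.0445). Col4a2 starts head to head with Col4a1 and overlaps it by its first bases on the other strand. Its log2 fold change was likewise 0.96.

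Nid2 (chr14:19751257-19811787, plus strand) was at 17.8, 18.0 and 32.1 CPM in KO1 to KO3, against 11.7, 7.90 and 14.3 CPM in WT1 to WT3. Every KO library was above every WT library, as for 3 of the 42 genes in all, a share near that of all tested genes given above. The means were 22.6 ± 8.22 CPM in KO and 11.3 ± 3.21 CPM in WT (SD, n = 3 each), and the log2 fold change was 1.00 ± 0.32. Its unadjusted p of 0.0154 was the smallest of the 42 genes in the edgeR fit, and it did not pass after adjustment (adjusted p = 0.793). Nid2 overlaps Rtraf on the other strand, whose total over the 6 libraries was 13859 counts against 3525 for Nid2. Its value is uncertain, because no source used here says whether reads were counted by strand.

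Nid1 (chr13:13437602-13512275, plus strand), with no overlapping gene in the tables, was at 75.4, 57.8 and 119 CPM in KO1 to KO3, against 49.7, 29.3 and 53.4 CPM in WT1 to WT3. All KO values were again above all WT values, the lowest KO and the highest WT lying close together. Its log2 fold change was 0.93 ± 0.33 (edgeR adjusted p = 0.793). The third gene without overlap, Lama2, was low, with 3.07, 2.81 and 6.50 CPM in KO1 to KO3 and 2.24, 1.57 and 2.57 CPM in WT1 to WT3. Col18a1 is uncertain as well, because its span overlaps that of Slc19a1 on the other strand. Gene totals were 10019 counts for Slc19a1 and 32806 for Col18a1, and shared reads were not measured.

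The most frequent order over the mice held for 11 of the 42 genes, and its share over all tested genes was not computed. To describe the starts of the 42 genes, the 250 bases upstream were read for 5 motifs on both strands (RefSeq, GRCm38.p6). A window was at hand for 23 of the 42. A gene was counted once if any of its windows held the motif. The GC box GGGCGG was found for 13 of the 23 genes (56.5%), against 35.4% of 27025 genes with a window. That larger set was not limited to protein-coding genes, whereas the matrix genes are all protein-coding. CCAAT was in 7 (30.4%, against 37.5%), TATAAA in 4 (17.4%, against 14.3%), the TEAD motif GGAATG in 4 (17.4%, against 14.4%) and the AP-1 motif TGANTCA in 1 (4.35%, against 7.82%). A match describes letters only, and no binding was measured. The window of Nid1, shown because its genotypes did not overlap and it has no overlapping gene, holds a CCAAT box on the minus strand and a GC box and a GGAATG on the plus strand, all in capitals (chr13:13437352-13437601, plus strand).
Nid1 upstream: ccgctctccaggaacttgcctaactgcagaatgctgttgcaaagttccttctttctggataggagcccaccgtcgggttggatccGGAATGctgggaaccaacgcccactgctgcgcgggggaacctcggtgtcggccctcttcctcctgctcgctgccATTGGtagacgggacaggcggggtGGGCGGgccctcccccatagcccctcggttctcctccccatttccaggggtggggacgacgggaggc

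**Figure D2:**
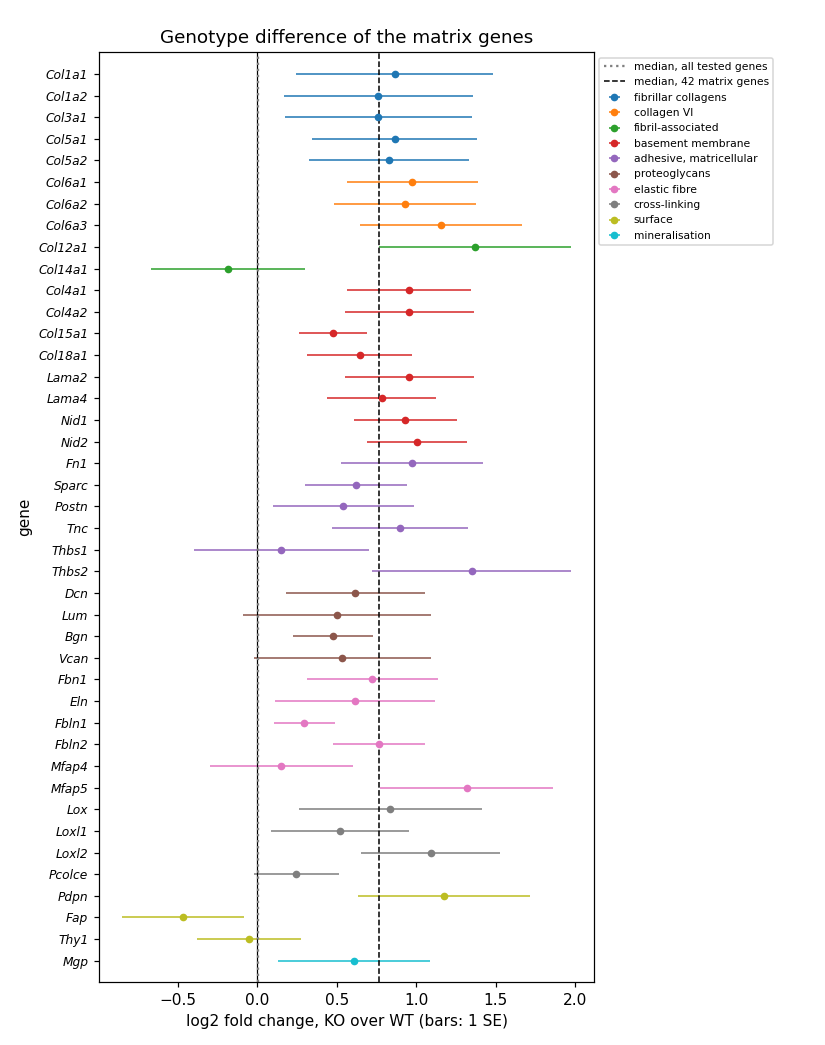
Log2 fold change, KO over WT, of each of the 42 matrix genes from edgeR (points, coloured by role, bars 1 SE), with dashed and dotted lines at the medians of the 42 genes (0.76) and of all tested genes (0.01). Of the 42 points 39 lie right of 0, the farthest being Col12a1 at 1.37, and Fap at -0.47 lies farthest left.

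Adhesive and matricellular glycoproteins connect cells to fibres or modulate that contact. Sparc, a collagen chaperone and calcium-binding matricellular protein (chr11:55394500-55420080, minus strand), was at 311, 162 and 368 CPM in KO1 to KO3, against 187, 139.5 and 220.3 CPM in WT1 to WT3. KO1 and KO3 exceeded all WT libraries and KO2 exceeded only WT2. The log2 fold change was 0.62 ± 0.32 (edgeR adjusted p = 0.793). Fn1 encodes fibronectin, the adhesive glycoprotein on which collagen fibrils are assembled (chr1:71585520-71653200, minus strand). It was at 282, 112 and 311 CPM in KO1 to KO3 and at 136, 67.1 and 156 CPM in WT1 to WT3, the same arrangement. The Fn1 log2 fold change was 0.97 ± 0.45 (edgeR adjusted p = 0.793). Periostin (Postn), tenascin C (Tnc) and the thrombospondins Thbs1 and Thbs2 had log2 fold changes of 0.54, 0.90, 0.15 and 1.35. Thbs1 stood apart in that KO2, at 71.2 CPM, was its lowest library.

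The small leucine-rich proteoglycans decorin (Dcn), lumican (Lum) and biglycan (Bgn) bind collagen fibrils and growth factors, and versican (Vcan) is a large hyaluronan-binding one. Dcn (chr10:97479500-97518162, plus strand), with Lum as its neighbour, was at 143, 65.7 and 174 CPM in KO1 to KO3, against 93.7, 44.7 and 111 CPM in WT1 to WT3. KO2 again lay between WT2 and WT1, and the log2 fold change was 0.62 ± 0.44 (edgeR adjusted p = 0.813). Bgn (chrX:73483602-73495933, plus strand), which carries 2 miR-34 matches, was at 104, 81.4 and 159 CPM in KO1 to KO3 and at 80.8, 72.2 and 95.0 CPM in WT1 to WT3. The WT mice lay close together for Bgn, and KO2 exceeded WT1 only slightly. Its log2 fold change was 0.47 ± 0.25 (edgeR adjusted p = 0.794). Lum and Vcan had log2 fold changes of 0.50 and 0.54. Vcan is uncertain, because the antisense gene Gm4117 within it drew 2513 counts against 1679 for Vcan.

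Elastic fibre genes encode elastin (Eln), the fibrillin-1 scaffold (Fbn1), the fibulins Fbln1 and Fbln2, and microfibril-associated Mfap4 and Mfap5. Fbln1 (chr15:85205949-85286535, plus strand) varied least within genotypes of these genes. It was at 136, 106 and 110.3 CPM in KO1 to KO3, against 107, 71.9 and 108 CPM in WT1 to WT3, a log2 fold change of 0.30 ± 0.19 (edgeR adjusted p = 0.807). Fbln2 (chr6:91212455-91272540, plus strand) was at 11.3, 6.47 and 9.77 CPM in KO1 to KO3 and at 4.60, 4.69 and 6.94 CPM in WT1 to WT3. KO2 was below WT3 alone, and here KO1 and not KO3 was highest. The Fbln2 log2 fold change was 0.77 ± 0.29 (edgeR adjusted p = 0.793, unadjusted p = 0.0338). Mfap5, also past an unadjusted p of 0.05, reached at most 1.37 CPM in any library. Fbn1 and Eln had log2 fold changes of 0.72 and 0.61, and Mfap4, which shares its locus with Mapk7, had 0.15.

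Lysyl oxidases oxidise lysines of collagen and elastin so that fibres cross-link, and Pcolce enhances removal of the procollagen C-terminal piece. Loxl2 (chr14:69609068-69695834, plus strand), which holds a miR-34 match and 2 miR-29 matches, was at 49.4, 25.6 and 67.0 CPM in KO1 to KO3, against 22.4, 12.3 and 32.0 CPM in WT1 to WT3. KO2 was above WT1 and WT2 and below WT3. The means were 47.3 ± 20.8 CPM in KO and 22.2 ± 9.83 CPM in WT (SD, n = 3 each), with a log2 fold change of 1.09 ± 0.44 (edgeR adjusted p = 0.793, unadjusted p = 0.0423). Lox (chr18:52516069-52529867, minus strand) was at 13.7, 6.37 and 23.6 CPM in KO1 to KO3 and at 5.996, 4.53 and 13.9 CPM in WT1 to WT3. KO1 and WT3 were nearly equal, and the log2 fold change was 0.84 ± 0.57 (edgeR adjusted p = 0.813). Loxl1 and Pcolce had log2 fold changes of 0.52 and 0.25, and reads of Pcolce may be shared with Fbxo24 and Gm36266.

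The fibroblast surface genes did not share 1 direction. Pdpn, a mucin-like glycoprotein of activated fibroblasts that lymphatic endothelium also carries (chr4:143267431-143299564, minus strand), was at 16.6, 9.81 and 20.3 CPM in KO1 to KO3, against 4.66, 3.24 and 12.8 CPM in WT1 to WT3. Only KO2 and WT3 crossed, and the log2 fold change was 1.17 ± 0.54 (edgeR adjusted p = 0.793). Fap, the fibroblast activation protease (chr2:62500943-62574075, minus strand), was at 0.599, 1.09 and 0.816 CPM in KO1 to KO3 and at 0.746, 1.38 and 1.34 CPM in WT1 to WT3. The Fap log2 fold change was -0.47 ± 0.38 (edgeR adjusted p = 0.818), and WT2, lowest for most matrix genes, was its highest library. Thy1, also found on T cells, had -0.05. Mgp, an inhibitor of tissue calcification (chr6:136872436-136875805, minus strand), was at 10.2, 3.73 and 6.34 CPM in KO1 to KO3, against 4.44, 2.39 and 6.47 CPM in WT1 to WT3. WT3 and KO3 were about equal for Mgp, and the log2 fold change was 0.61 ± 0.48 (edgeR adjusted p = 0.814).

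Set on 1 scale per length (CPM per kilobase of exon), the matrix genes spanned a wide range of levels. Sparc averaged 73.9 ± 28.1 in KO and 48.1 ± 10.7 in WT CPM per kilobase (SD, n = 3 each), and Col1a1 averaged 78.2 ± 53.1 in KO and 43.0 ± 23.5 in WT. These top genes did not differ beyond their spread. Col4a1 followed with 55.0 ± 21.2 in KO and 28.3 ± 11.3 in WT, then Col3a1 with 42.7 ± 28.1 in KO and 25.2 ± 12.9 in WT. At the other end were Fap (0.147 ± 0.0434 in KO, 0.204 ± 0.0632 in WT), Lama2 (0.253 ± 0.126 in KO, 0.130 ± 0.0312 in WT) and Mfap5 (0.284 ± 0.129 in KO, 0.114 ± 0.0537 in WT).

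**Figure D3:**
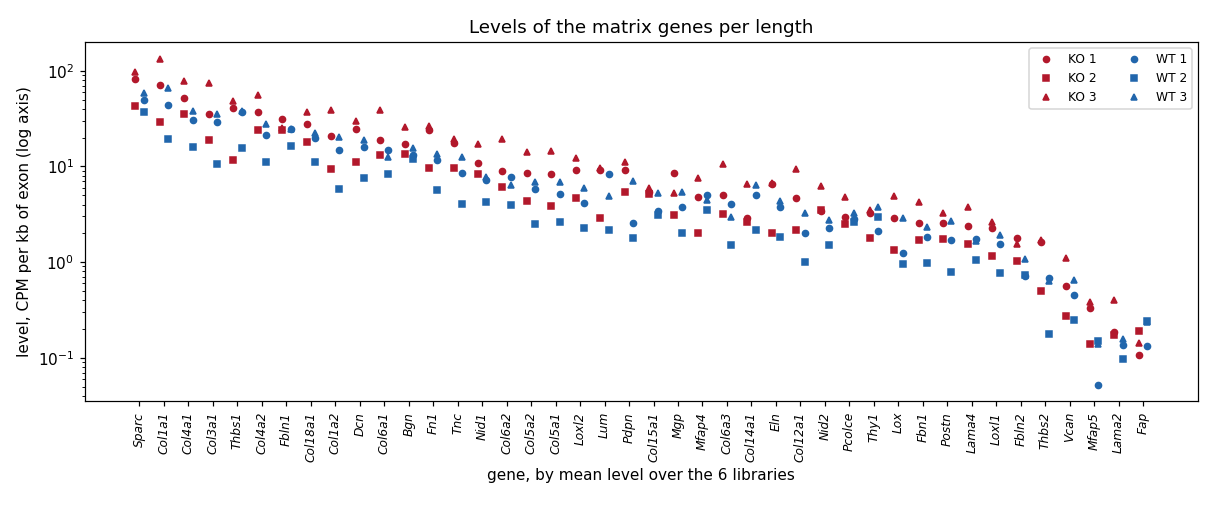
Level per length of the 42 matrix genes (log axis, CPM per kilobase of exon), ordered by the mean of the 6 libraries, with 1 point per library and KO points left of WT points. Sparc and Col1a1 are at the top and Fap at the bottom, and the red triangles (KO3) top most columns while the blue squares (WT2) lie lowest in most.

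Paired chains of collagens I, IV and V, and Col6a1 with Col6a2, kept nearly fixed ratios although their levels differed several-fold between mice. The Col1a1 to Col1a2 ratio per length was 3.40, 3.05 and 3.49 in KO1 to KO3 and 2.97, 3.31 and 3.27 in WT1 to WT3. Its highest value was 1.18 times its lowest, while Col1a1 itself varied 7.02-fold and Col1a2 6.65-fold. The ratio's height depends on the length taken for each gene, being 1.41 to 1.66 by the longest transcript, but its constancy does not. The Col4a1 to Col4a2 ratio varied 1.07-fold, from 1.40 to 1.47 in KO and from 1.38 to 1.45 in WT, against 4.84-fold for Col4a1. Col6a1 to Col6a2 varied 1.12-fold and Col5a1 to Col5a2 1.18-fold. Less tight were Nid1 to Nid2 (1.32-fold), which encode separate proteins, and Col6a3 to Col6a1 (1.51-fold), lowest in WT2 at 0.183. No ratio between different collagens was computed, so constancy cannot be called particular to partner chains. Col3a1, of another collagen, was at 346, 187 and 725 CPM in KO1 to KO3. In WT1 to WT3 it was at 286, 105 and 351 CPM. Col1a2 moved alongside, at 260, 118 and 479 CPM in KO1 to KO3 and 183, 72.0 and 251 CPM in WT1 to WT3.

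By the sex read from the counts, the genotype difference ran opposite ways in male and female mice for most matrix genes. In the male pair KO2 was below WT3 for 37 of the 42 genes, as it was for 50.2% of all tested genes. The 5 with KO2 above WT3 were Col6a1, Col6a3, Lama2, Nid1 and Nid2. In the 4 female mice the order was the other way, KO1 and KO3 both being above WT1 and WT2 for 39 of the 42 genes, against 25.7% of all tested genes. The exceptions were Col14a1, Mfap4 and Fap. Median log2 differences, KO minus WT, were -0.40 in males and 1.26 in females. With 1 male per genotype, sex and the single mouse cannot be told apart.

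A test of the difference between sexes (the interaction of sex and genotype in edgeR) called 0 of the 42 genes, with a smallest adjusted p of 0.247 for Pdpn, and 0.0406% of all tested genes. At an unadjusted p under 0.05 it gave 23 of the 42 and 9.55% of all genes (1647 of 17254). The male arms hold 1 mouse each, so the spread in this test comes from the 4 females and is assumed to hold for males, and the male difference has no replicate. The interaction, male minus female, was negative for 41 of the 42, with a median of -1.71 against 0 over all tested genes. In the female mice alone, a fit chosen after seeing the data called 0.441% of genes (77 of 17447) and 1 matrix gene, Pdpn, at a log2 fold change of 2.23 (edgeR adjusted p = 0.0377). With sex as a term in the fit of all 6 mice, 37 of the 42 genes had a log2 fold change above 0, the median was 0.72 and 0 were called.

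The direction rested on KO3 and WT2 more than on the other mice. Without KO3 the median log2 fold change of the 42 genes was 0.34, and without WT2 it was 0.48. Without both, a fit chosen after seeing the data, it was 0.11, and 29 of the 42 genes were above 0. By class, the median was then -0.13 for fibrillar collagens and 0.30 for the basement membrane genes, of which all 8 stayed above 0. Without KO2 the median was 1.08, and KO1 and KO3 were above all WT libraries for 32 of the 42 genes, against 20.4% of all tested genes.

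**Figure D4:**
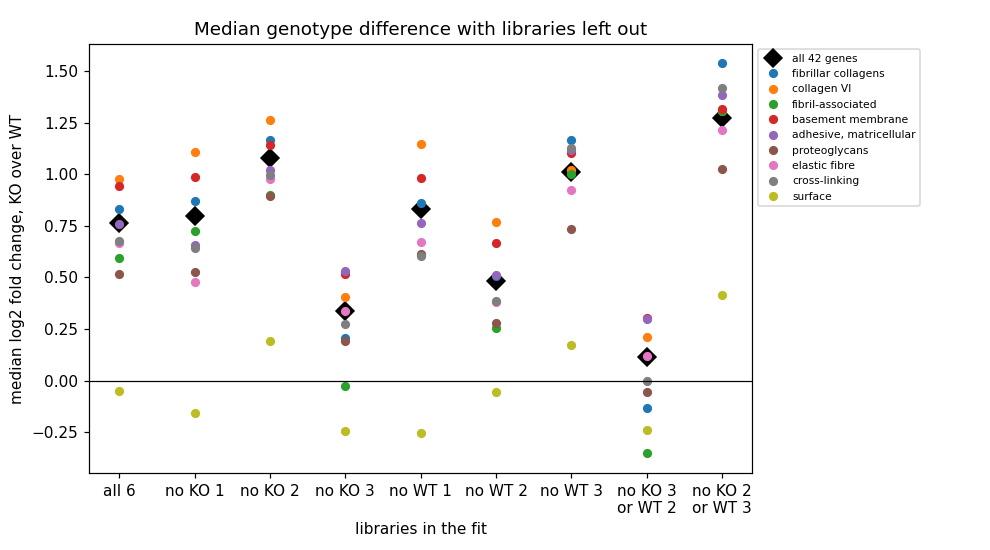
Median log2 fold change, KO over WT, of all 42 matrix genes (black diamonds) and of 9 of their classes (circles) with all 6 libraries and with the named libraries left out of the edgeR fit. The black diamond stands at 0.76 with all libraries, at 0.34 without KO3, at 0.11 without KO3 and WT2, and at 1.27 without KO2 and WT3.

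Genes of the same pathways that are not among the 42 were read from lists of other collagens, collagen-processing enzymes, proteoglycans, elastic fibre genes, laminins, glycoproteins, matrix receptors and TGF-beta components. Of 130 tested, 107 had a log2 fold change above 0 and 23 below, the median was 0.38, and none was called (smallest edgeR adjusted p = 0.701). The median was highest for other elastic fibre genes (0.55, 10 of 12 above 0) and other proteoglycans (0.51, 8 of 10). It was 0.48 for other glycoproteins (20 of 23), 0.46 for collagen biosynthesis (20 of 23) and 0.45 for other laminins (9 of 9). Matrix receptors had 0.27 (15 of 18), TGF-beta ligands, receptors and Smads 0.26 (9 of 11), and other collagens 0.17 (17 of 25).

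Of the 130 genes 17 (13.1%) had all KO libraries above all WT libraries, against 5.86% of all tested genes, and 0 had all KO below. From each of the 8 lists the gene with the smallest p is given, a choice that by itself favours groups without overlap. Col6a5, a further collagen VI alpha chain, was at 8.60, 7.46 and 23.1 CPM in KO1 to KO3, against 3.20, 3.71 and 2.94 CPM in WT1 to WT3, a log2 fold change of 1.99 ± 0.46 (edgeR adjusted p = 0.701). P4ha1, a subunit of the prolyl 4-hydroxylase that stabilises collagen helices, averaged 41.8 ± 6.12 CPM in KO and 23.8 ± 9.62 CPM in WT (SD, n = 3 each). The laminin beta chain gene Lamb1 averaged 114 ± 46.0 CPM in KO and 53.7 ± 17.0 CPM in WT. Ddr2, a receptor tyrosine kinase for fibrillar collagen, averaged 18.3 ± 3.81 CPM in KO and 10.9 ± 1.10 CPM in WT. Averages of Tgfb2, a TGF-beta ligand, were 6.11 ± 2.19 CPM in KO and 2.74 ± 0.145 CPM in WT. Ltbp1, which tethers latent TGF-beta to the matrix, averaged 71.7 ± 23.6 CPM in KO and 29.2 ± 15.4 CPM in WT. Tgfbi, a collagen-binding adhesion protein, averaged 182 ± 15.7 CPM in KO and 125 ± 19.8 CPM in WT, and the small proteoglycan Ogn 3.90 ± 0.519 CPM in KO and 2.01 ± 0.735 CPM in WT. None of these passed the adjusted threshold.

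Fibroblast markers that are not matrix genes also had higher sums in KO1 and KO3. The 14 listed (12 tested) summed to 384, 233 and 479 CPM in KO1 to KO3, against 229, 162 and 254 CPM in WT1 to WT3, with a median log2 fold change of 0.52 and 8 of 12 above 0. KO2 overlapped the WT range through Vim, the most abundant of them. The intermediate filament gene Vim was at 188, 62.1 and 166 CPM in KO1 to KO3 and at 77.6, 62.9 and 98.1 CPM in WT1 to WT3. Without Vim, left out after its values were seen, the sums were 197, 171 and 313 CPM in KO1 to KO3. They were 151, 99.0 and 156 CPM in WT1 to WT3. Every KO library was then above every WT library, an outcome that the choice of the omitted gene favours. Foxf1, a mesenchymal transcription factor, averaged 22.1 ± 3.32 CPM in KO and 12.8 ± 3.12 CPM in WT (SD, n = 3 each).

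Pdgfra, a receptor that marks intestinal fibroblasts, was at 84.3, 70.0 and 163 CPM in KO1 to KO3, against 63.0, 26.1 and 60.7 CPM in WT1 to WT3. Its groups did not overlap, and its log2 fold change was 1.08 ± 0.43 (edgeR adjusted p = 0.793, unadjusted p = 0.0405). For Pdgfrb, a receptor of fibroblasts and pericytes, the log2 fold change was 0.72 ± 0.30 (edgeR adjusted p = 0.793, unadjusted p = 0.0473). Log2 fold changes below 0 were those of Prrx1 (-0.098), Tcf21 (-0.086), Pi16 (-0.172) and S100a4 (-0.305), none of them called. Twist1 and Twist2 were too low to be tested. The samples are whole adenomas, so these markers show fibroblast RNA in each pool but not which cells made the matrix RNA.

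The matrix sum divided by the fibroblast-marker sum was 10.8, 9.71 and 13.3 in KO1 to KO3 and 12.2, 8.86 and 13.3 in WT1 to WT3. Divided by the sum without Vim it was 21.2, 13.2 and 20.3 in KO1 to KO3 and 18.4, 14.5 and 21.7 in WT1 to WT3. KO and WT ratios overlapped in both cases.

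**Figure D5:**
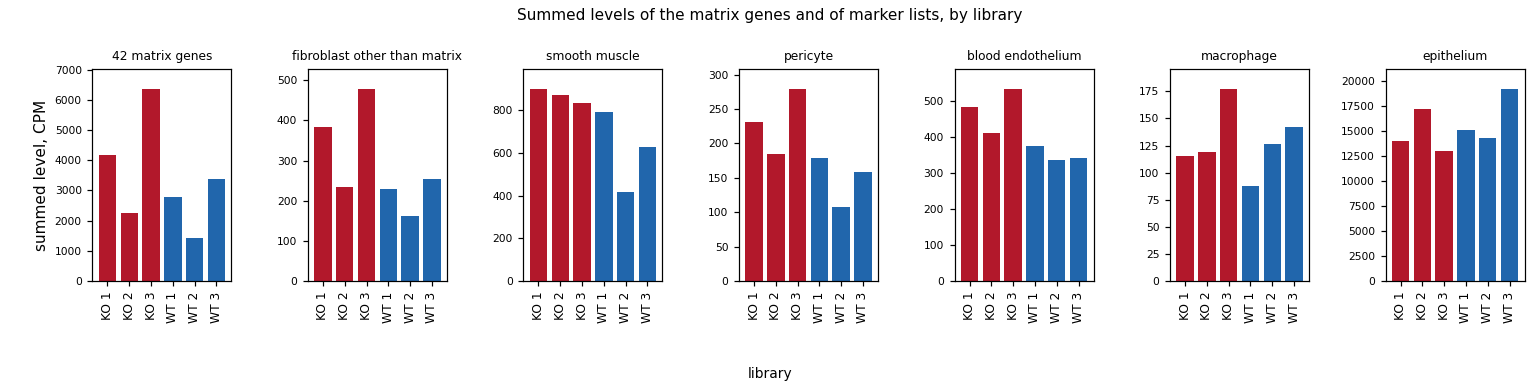
Summed level (CPM) of the 42 matrix genes and of 6 marker lists in each library, KO bars (red) left of WT bars (blue), with each axis starting at 0. The matrix and fibroblast sums share KO3 as the highest and WT2 as the lowest library, and the smooth muscle, pericyte and blood endothelium sums are higher in all KO than in all WT libraries.

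Other stromal markers stood higher in KO libraries, and their part in the matrix differences was not tested. The 11 smooth muscle markers, all with a log2 fold change above 0, summed to 837 to 902 CPM in KO and 417 to 791 CPM in WT. The 6 pericyte markers, all above 0, summed to 184 to 279.8 CPM in KO and 108 to 179 CPM in WT. For blood endothelium (11 of 12 above 0) the sums were 409.7 to 534 CPM in KO and 337 to 374 CPM in WT. Mesothelial markers (2 tested, both above 0) summed to 20.7 to 26.9 CPM in KO and 6.76 to 18.1 CPM in WT. In all 4 lists the KO and WT sums did not overlap. Genes named from these lists are those with the smallest p and the most abundant ones. Synpo2, an actin-binding gene of smooth muscle, averaged 25.3 ± 3.87 CPM in KO and 14.8 ± 5.25 CPM in WT (SD, n = 3 each), but Mylk, the myosin kinase gene and most abundant of that list, 238 ± 31.8 CPM in KO and 220.5 ± 41.1 CPM in WT, with a log2 fold change of 0.11. The pericyte proteoglycan gene Cspg4 averaged 8.32 ± 1.58 CPM in KO and 4.26 ± 1.00 CPM in WT, and Rgs5 129.7 ± 26.1 CPM in KO and 89.5 ± 29.3 CPM in WT. Vwf, the von Willebrand factor gene, averaged 55.6 ± 13.3 CPM in KO and 30.9 ± 10.1 CPM in WT, and the endothelial cadherin gene Cdh5 118 ± 18.6 CPM in KO and 67.7 ± 27.0 CPM in WT. For mesothelium, Upk3b averaged 0.641 ± 0.160 CPM in KO and 0.292 ± 0.0981 CPM in WT, and Msln 23.1 ± 3.21 CPM in KO and 12.1 ± 5.63 CPM in WT.

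Lists of other cell types overlapped between genotypes or ran lower in KO. The lymphatic endothelium list (3 of 4 above 0) summed to 159.7 to 522 CPM in KO and 198 to 334 CPM in WT. Nearly all of this was Prox1, and which cells made the Prox1 RNA was not tested. Without Prox1 the sums were 12.1, 18.6 and 22.5 CPM in KO1 to KO3 and 12.7, 13.9 and 15.5 CPM in WT1 to WT3. Macrophage markers (6 of 7 above 0) summed to 116 to 178 CPM in KO and 87.4 to 142 CPM in WT, and mast cell markers (6 of 6) to 172 to 597 CPM in KO and 57.2 to 405 CPM in WT. Epithelial markers (1 of 10 above 0) summed to 13017 to 17260.0 CPM in KO and 14328 to 19289 CPM in WT. B and plasma cell markers (0 of 5 above 0) summed to 253 to 747 CPM in KO and 913 to 1379.6 CPM in WT, and T cell markers (0 of 5) to 6.13 to 19.1 CPM in KO and 17.1 to 22.0 CPM in WT. The enteric glia marker S100b averaged 1.10 ± 0.112 CPM in KO and 2.54 ± 0.171 CPM in WT. The 4 adipocyte markers, of which only Cidec was tested, summed to 39.4 to 74.2 CPM in KO and 57.2 to 88.3 CPM in WT. No listed marker was at 0 in all 6 libraries, and no gene of any marker list was called.

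By the same choice of genes, lymphatic Flt4 averaged 8.04 ± 2.34 CPM in KO and 5.77 ± 0.360 CPM in WT, and Prox1 350.0 ± 186 CPM in KO and 230.0 ± 78.8 CPM in WT. Macrophage Adgre1 averaged 7.68 ± 2.08 CPM in KO and 4.84 ± 1.39 CPM in WT, and Csf1r 37.3 ± 13.7 CPM in KO and 27.5 ± 8.54 CPM in WT. The mast cell proteases Mcpt4 and Mcpt1 averaged 9.06 ± 3.88 and 223 ± 129 CPM in KO, against 3.97 ± 1.34 and 118 ± 111 CPM in WT. Epithelial Cldn3 and Krt8 averaged 209.8 ± 18.7 and 3945 ± 412 CPM in KO, against 257 ± 30.8 and 4353 ± 921 CPM in WT. The plasma cell gene Jchain averaged 546 ± 263 CPM in KO and 1124 ± 227 CPM in WT, and the T cell receptor gene Trac 3.43 ± 1.78 CPM in KO and 6.74 ± 1.01 CPM in WT. Cidec averaged 51.2 ± 19.7 CPM in KO and 76.1 ± 16.6 CPM in WT.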

How the data were processed

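Total RNA of small-intestinal adenomas was sequenced in 3 KO and 3 WT mice, grouped by the sample titles and genotypes. Each deposited table gives raw read counts by Ensembl gene with gene positions. Per the submitters' processing notes, TopHat2 2.1.0 and HTSeq 0.6.1 were used with mm10. The annotation release, any use of strand and the handling of multi-mapped reads are not given in the sources consulted, so overlapping genes are given as uncertain. Replicates are separate mice, and depth was 26375035 to 38354355 counts per library.

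Genes were filtered with filterByExpr, normalized by TMM and tested with edgeR 4.0.16 (R 4.3.3; quasi-likelihood F-test, robust fitting), with Benjamini-Hochberg adjustment over 17254 genes at 0.05. The SE is the log2 fold change over the square root of F. The fit was tested on simulated counts with 200 changed genes. CPM use TMM library sizes. Exon lengths and the longest 3′ UTR came from GENCODE M21, symbols for 45143 of 46078 identifiers from the reference tables, and sequences from RefSeq. Coordinates are those of the deposited tables, with the first base written as 1.

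The 42 members and all gene lists were chosen with earlier results of these data known. Genes with values per library were, in each role, the member with the highest level per length and the one with the smallest p (or the second smallest where these coincided). From other lists the gene with the smallest p was named, and for marker lists also the most abundant one; Nid1, Lama2, Pdgfra and Pdgfrb were named after their values were seen. Of the enteric glia list, 1 result is not reported here. The alternatives were other scalings, filters, an adjusted p of 0.1, DESeq2 1.42.0, limma-voom (limma 3.58.1), non-robust fitting, a replicate block, leaving out each mouse, the longest transcript as length and 8-mer seeds. A sex term, the female mice alone, a fit without KO3 and WT2, and the sums without Vim or Prox1 were added after the data were seen.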

Additional observations from a re-analysis of the deposited data

Results flagged for a closer look

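The median genotype difference of the matrix genes had opposite signs in male and female mice. By gene, the signs were opposite for 36 of the 42 and the same for 6, namely Col6a1, Col6a3, Lama2, Nid1 and Nid2 (above 0 in both sexes) and Fap (below 0 in both). Over the 42 genes the median log2 difference, KO minus WT, was -0.40 between the single KO and WT males and 1.26 between 2 KO and 2 WT females, and the median of the gene-wise male minus female difference was -1.714. The summed level was 2267 CPM in the KO male against 3391 CPM in the WT male, and 4169.8 and 6370.5 CPM in the KO females against 2783 and 1433 CPM in the WT females. The edgeR interaction test called 0 of the 42 genes (23 at an unadjusted p under 0.05), with Lox (adjusted p = 0.269) and Pdpn (adjusted p = 0.247) having the smallest p. Its spread comes from the females alone, since the male arms have no replicate. Because each genotype had 1 male, sex and the individual mouse cannot be told apart.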

How the results depend on the processing

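Over all genes, the count called was 16 in the main fit, 110 with DESeq2, 0 without KO3 and WT2 (338 at an unadjusted p under 0.05), 77 in the female mice alone, and 9 to 41 when each mouse was left out in turn (9 without KO1, 10 without KO3, 41 without KO2, 29 without WT3). Of the matrix genes 0 were called with every other scaling, filter, tool and single left-out mouse tried, and 1, Pdpn (log2 fold change 2.23, against 1.17), in the female mice alone. Their median log2 fold change ranged from 0.34 to 1.08 when 1 mouse was left out and was 0.87 with library size alone. It was 0.113 without KO3 and WT2 and 1.272 in the female mice alone. The count without overlap was 3 in the main comparison and 3 to 32 when 1 mouse was left out. It was 32 without KO2, all with KO higher, against 20.4% of all tested genes. In the female mice alone it was 39, all with KO higher, against 25.7% of all tested genes. Without WT3 it was 14, and without WT1 it was 6, of which 5 had KO higher. No share over all genes was computed for the fits without WT3 or WT1, and groups with fewer mice overlap less readily. The sign of Col14a1 turned without KO2 (0.049), without WT3 (0.152) and in the female mice alone (0.385), and was -1.069 without KO3 and WT2. The sign of Col1a1 turned without KO3 and WT2 (-0.131), and its value was 1.712 in the female mice alone. The level of Sparc was 100.5 CPM per kilobase by the longest transcript and 61.0 by the exon union, first in rank by both. Other ranks moved with the length taken. Bgn was at rank 12 by the exon union and 6 by the longest transcript. The lowest gene was Fap by the exon union and Mfap5 by the longest transcript. Matrix genes with a miR-34 match numbered 4 with the 8-mer and 7 with the 7-mer. Of 322 values of the 19 genes named by rule under alternatives, 4 turned sign. The cause of these shifts was not tested.

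Deviations from the group means correlated at 0.218, 0.273 and 0.081 between mice with the same replicate number. Between mice with different numbers the correlations ran from -0.297 to 0.179, and KO3 correlated best with WT1 (0.179). The labels do not say that the numbers pair mice. Within each number the summed matrix level was higher in KO: 4169.8 against 2783 CPM, 2267 against 1433 CPM and 6370.5 against 3391 CPM. By the sex read from the counts, numbers 2 and 3 each set a male against a female, since KO2 and WT3 were male. Between the males the sum was lower in KO, 2267 against 3391 CPM. Replicate number and sex are therefore mixed in these comparisons and in a fit with the number as block. With a replicate block 14 genes and 0 matrix genes were called, 32 matrix genes had an unadjusted p under 0.05 (1633 of all 17254 genes did), and the smallest adjusted p of a matrix gene was 0.071 in edgeR. The 3 mice per genotype and the spread between them limit these results. Depth varied by gene, from 147 to 84495 counts per matrix gene over the 6 libraries. A sequence-repeat length of the collagen chains was not run.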
